A study of Mus musculus with 20 samples.

Results

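The chemokine genes described here were Ccl2, Ccl3, Ccl4, Ccl5, Ccl6, Ccl9, Ccl12, Cxcl9, Cxcl10 and Cxcl16, taken by symbol from the gene count table of a traumatic brain injury study, 10 genes among 39017 identifiers. RNA was sequenced from microglia and astrocytes of the ipsilateral forebrain of adult male C57BL/6 mice (C57BL/6J in the study's methods) 7 days after lateral fluid percussion injury (FPI) or sham injury. In FPI a falling pendulum sends a brief pressure pulse through fluid to the brain surface at a craniectomy, and sham mice had the craniectomy, the anesthesia and the connection to the device but no pulse. Microglia were sorted as CD11b+ cells with intermediate CD45 and astrocytes as ACSA-2+ cells, after enzymatic digestion of the tissue. There were 5 libraries from each of sham microglia, FPI microglia, sham astrocytes and FPI astrocytes, 20 in all, and each library came from the sorted cells of 1 animal.

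Chemokines are small secreted proteins that attract leukocytes by binding G protein-coupled receptors on them, and they are grouped as CC or CXC by the spacing of their first cysteines. In the brain, microglia and astrocytes are both known sources of chemokines after injury, with type I and type II interferon and NF-kappaB among the inducers of these genes. Ccl2 and Ccl12 are ligands of Ccr2, the receptor of inflammatory monocytes. Ccl3 and Ccl5 bind Ccr1, as do Ccl6 and Ccl9, which are rodent chemokines, and Ccl4 is a close relative of Ccl3. Cxcl9 and Cxcl10 are interferon-induced ligands of Cxcr3 on activated T cells, and Cxcl16 is a membrane-anchored ligand of Cxcr6 that can be shed from the cell surface.

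The 10 genes lay on 2 chromosomes (GRCm38, GENCODE M21), and all were annotated as protein coding. Cxcl9 (chr5:92321347-92328079) and Cxcl10 (chr5:92346638-92348889) were neighbors on the minus strand, 18.6 kb apart. On chromosome 11, Ccl2 (chr11:82035571-82037453, plus strand) and Ccl12 (chr11:82101845-82103400, plus strand) were 64.4 kb apart. Farther along lay Ccl5 (chr11:83525778-83530518), Ccl9 (chr11:83572919-83578636), Ccl6 (chr11:83587882-83593087) and Ccl3 (chr11:83647844-83649355), all on the minus strand, and Ccl4 (chr11:83662584-83664683) on the plus strand. The gap from Ccl9 to Ccl6 was 9.25 kb and that from Ccl3 to Ccl4 was 13.2 kb. Cxcl16 (chr11:70453983-70459984, minus strand) stood apart from this cluster.

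Promoter sequences from RefSeq (GRCm38.p6) were matched for 6 of the 10 genes, namely Ccl3, Ccl6, Ccl9, Ccl12, Cxcl9 and Cxcl10, each with 250 bases before and 50 after the gene start. The windows were searched on both strands for the interferon-stimulated response element (GAAA and again GAAA, with a pair of free bases between them), the interferon-gamma activated site (TTCNNNGAA), an NF-kappaB site (GGG and TTTCC, with a pair of free bases between them) and an AP-1 site (TGANTCA), which are held by 3.44%, 8.3%, 1.63% and 7.81% of 32851 promoters. The 250 bases before the start are shown in the direction of transcription for Cxcl10 and Ccl12, which rose in microglia, and for Ccl9, which was not called, with motif matches in capitals:

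Cxcl10 (chr5:92348890-92349139, minus strand): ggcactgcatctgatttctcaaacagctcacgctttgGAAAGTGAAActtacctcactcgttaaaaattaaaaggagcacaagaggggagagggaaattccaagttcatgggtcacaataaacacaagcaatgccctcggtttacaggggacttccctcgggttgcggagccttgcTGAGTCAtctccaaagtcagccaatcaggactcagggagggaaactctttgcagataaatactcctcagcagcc
Ccl12 (chr11:82101595-82101844, plus strand): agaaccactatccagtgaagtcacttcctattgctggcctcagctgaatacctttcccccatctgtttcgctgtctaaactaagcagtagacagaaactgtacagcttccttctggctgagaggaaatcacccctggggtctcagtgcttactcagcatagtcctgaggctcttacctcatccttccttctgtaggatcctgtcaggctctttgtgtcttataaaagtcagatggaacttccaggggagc
Ccl9 (chr11:83578637-83578886, minus strand): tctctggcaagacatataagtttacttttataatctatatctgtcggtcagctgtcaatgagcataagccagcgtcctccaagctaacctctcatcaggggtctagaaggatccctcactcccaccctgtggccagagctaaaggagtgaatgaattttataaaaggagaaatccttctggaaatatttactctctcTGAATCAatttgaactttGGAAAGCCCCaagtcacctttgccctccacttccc

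In Cxcl10 the capitals mark an interferon-stimulated response element that begins 213 bases before the start and an AP-1 match that begins 74 bases before it. In Ccl9 they mark an AP-1 match at 53 bases and an NF-kappaB match on the opposite strand at 35 bases before the start. Cxcl9 held an AP-1 match 31 bases after its start, and no searched motif was found in the windows of Ccl3, Ccl6 and Ccl12. A match of letters in such a window is a description of the sequence and shows no binding. The search took only the fixed letters given, so a window without a match can hold sites of other letters. In Cxcl10, gggaaattcc and ggggacttcc each differ from the searched NF-kappaB pattern by a single base and were not marked.

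The libraries held 5.62 to 13.11 M counts on genes (median 8.14 M). Levels are given as CPM, counts per M of the library total after scaling by TMM factors over all 20 libraries, with the SD over 5 libraries. All 10 microglial markers were called higher in sham microglia and all 10 astrocyte markers higher in sham astrocytes. Microglial markers summed to 108 to 186 CPM in sham astrocytes and to 133 to 265 CPM in FPI astrocytes, and 7 of these 10 markers were tested there, with positive fold changes for 7, a median log2 fold change of 1.16, 4 at an unadjusted p below 0.05 and none called. Of that sum Sall1 alone gave a mean of 91.9 CPM in sham and 94.8 CPM in FPI astrocytes. Cx3cr1, a receptor that defines microglia, stood at 0.757 ± 0.570 CPM in sham and 7.75 ± 4.37 CPM in FPI astrocytes (log2 fold change 3.34, SE 0.62, adjusted p = 0.215). Astrocyte markers summed to 297 to 424 CPM in sham microglia and to 337 to 643 CPM in FPI microglia. Between these groups 9 of 10 had positive fold changes, with a median of 0.61. Of them 1, Gfap, was called (2.78, edgeR adjusted p = 0.00772), against 2.35% of all genes tested. In the same comparison 9 of 10 microglial markers had negative fold changes, with a median of -0.27, 5 at an unadjusted p below 0.05 and none called. One astrocyte library, FPI library 5, has a name with the suffix of microglia and with the number of the animal behind FPI astrocyte library 2. It was kept with the astrocytes by its title and cell type label. Its astrocyte markers summed to 15812 CPM and its microglial markers to 230 CPM. The FPI astrocyte libraries ranged from 11886 to 32093 CPM and from 133 to 265 CPM in these sums. The FPI microglia libraries ranged from 337 to 643 CPM and from 18397 to 29571 CPM. Among the microglia, the names of libraries 4 and 5 of each condition follow another scheme (suffix J-A) than those of libraries 1 to 3 (suffix M), and values within each series of names are given beside the results.

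In sham microglia the chemokines fell into a higher and a lower tier when set side by side per length of exon, in CPM per kb. The higher tier held 7 genes, Ccl3 at 69.8 ± 22.5 CPM per kb, Ccl4 at 58.8 ± 16.7, Ccl12 at 56.8 ± 8.71, Ccl6 at 36.1 ± 7.53, Ccl9 at 22.6 ± 5.84, Cxcl16 at 18.3 ± 1.86 and Ccl2 at 18.2 ± 8.45. The range of each of these overlapped that of its neighbor in this tier. Neighbors were measured in the same libraries, so this overlap does not show that their levels were alike. The lower tier held Cxcl10 at 1.87 ± 1.09 CPM per kb, Ccl5 at 1.27 ± 1.51 and Cxcl9 at 0.244 ± 0.148. The lowest Ccl2 library, at 10.5 CPM per kb, stood above the highest Cxcl10 library, at 3.05.

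**Figure D1:**
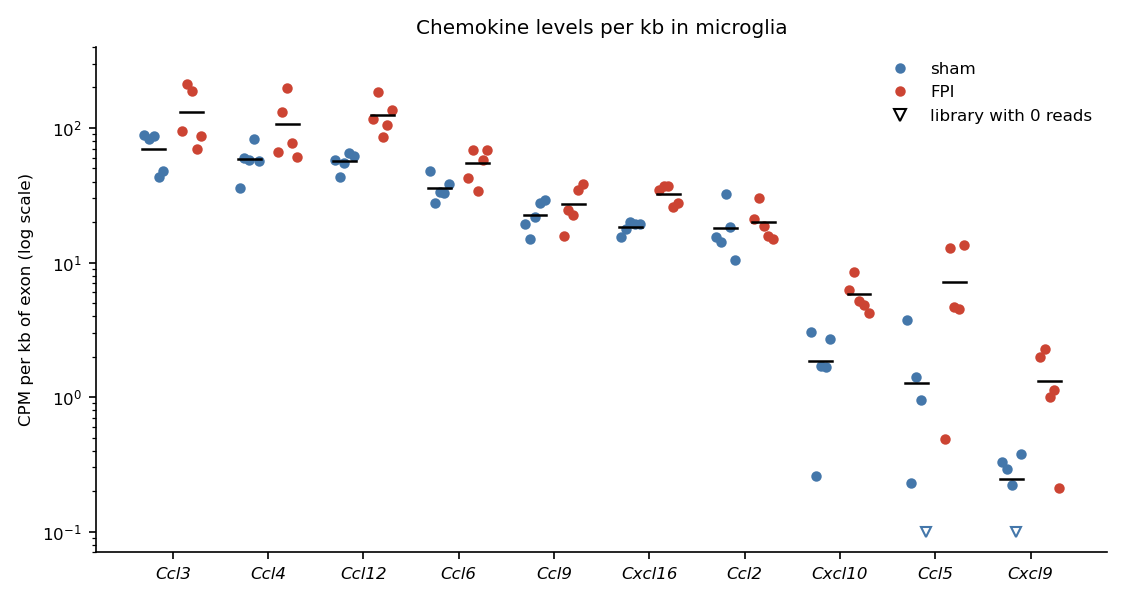
Level of each chemokine in CPM per kb of exon on a log axis, with a point for each sham (blue) and FPI (red) microglia library and a line at the group mean. Ccl3, Ccl4 and Ccl12 lie highest, and the gap between Ccl2 and the last 3 genes separates the tiers; open triangles mark the sham libraries with 0 reads of Ccl5 or Cxcl9.

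The same tiers were seen in FPI microglia, with Ccl3 at 131 ± 64.8, Ccl12 at 126 ± 37.7 and Ccl4 at 107 ± 58.7 CPM per kb at the top. Ccl5 (7.21 ± 5.74 CPM per kb) and Cxcl10 (5.80 ± 1.69) followed the higher tier with a gap, and Cxcl9 (1.31 ± 0.822) came last, without overlap with Cxcl10. The summed level of the 10 chemokines ranged from 292 to 364 CPM in sham microglia and from 452 to 731 CPM in FPI microglia, without overlap, most of it from the higher tier.

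To ask which chemokines differed with injury, FPI microglia were compared with sham microglia by edgeR's quasi-likelihood test over 12143 genes. Calls needed both an adjusted p under 0.1 and a log2 fold change beyond 0.6 in size. Ccl12, Cxcl16 and Cxcl10 rose, 3 of the 9 chemokines that passed the filter on low counts, against 2.35% of all genes tested (2.13% called higher and 0.214% lower). All 9 fold changes were positive, with a median of 0.87 on the log2 scale against -0.01 over all genes tested. The same 3 genes had every FPI library above every sham library, which held for 2.17% of all genes tested. Cxcl9 did not pass the filter. DESeq2, which keeps such genes, called 7 chemokines, these 3 with Ccl4, Ccl5, Ccl6 and Cxcl9, against 2.05% of the 20411 genes it tested. In sorted cells from whole forebrain, a change in the share of cells that express a gene and a change in RNA per cell cannot be told apart.

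**Figure D2:**
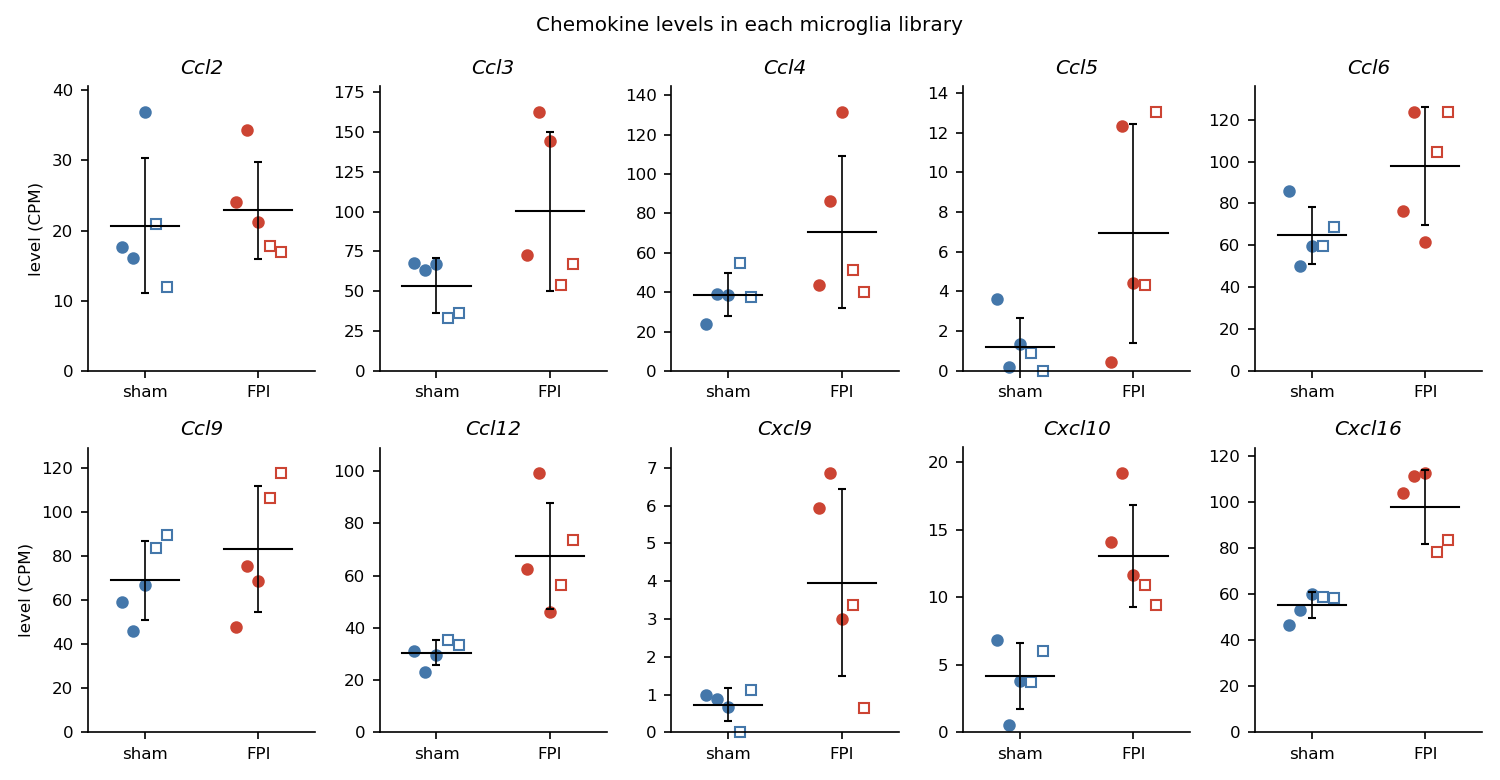
Level in CPM of each chemokine in the 5 sham (blue) and 5 FPI (red) microglia libraries, on linear axes from 0, with the mean and SD; filled circles are replicates 1 to 3 and open squares replicates 4 and 5, the 2 series of library names. Ccl12, Cxcl10 and Cxcl16 do not overlap between the groups, and Ccl3 separates within each series.

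Ccl12, the Ccr2 ligand that lies beside Ccl2, stood at 31.3, 23.0, 29.6, 35.2 and 33.3 CPM in sham microglia libraries 1 to 5 and at 62.6, 99.1, 46.2, 56.3 and 73.4 CPM in FPI libraries 1 to 5. The lowest FPI library was above the highest sham library, and FPI library 2 was highest. The means were 30.5 ± 4.68 and 67.5 ± 20.2 CPM (SD, n = 5), with a log2 fold change of 1.16 (SE 0.19, edgeR adjusted p = 0.00177). The log2 fold change was 1.29 within the M series and 0.97 within the J-A series, where the adjusted p was 0.109. It was called in all 10 fits that left out 1 library, at 1.00 to 1.28.

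Ccl2, the other Ccr2 ligand, did not follow it. Ccl2 stood at 17.6, 16.2, 36.9, 21.0 and 11.9 CPM in sham libraries and at 24.0, 34.3, 21.3, 17.8 and 17.0 CPM in FPI libraries. The groups overlapped almost wholly, and the highest value of all was sham library 3. The log2 fold change was 0.15 (SE 0.27, edgeR adjusted p = 0.917). Without FPI library 2 it was -0.03, and without sham library 3 it was 0.47 (adjusted p = 0.592), and it was called in neither fit.

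Cxcl16, the membrane-anchored chemokine, stood at 46.5, 53.2, 60.2, 58.7 and 58.4 CPM in sham libraries and at 104, 111, 112, 78.1 and 83.5 CPM in FPI libraries. FPI libraries 4 and 5, of the J-A series, were the lowest of their group and still above every sham library. The means were 55.4 ± 5.62 and 97.8 ± 15.9 CPM. The log2 fold change was 0.83 (SE 0.14, adjusted p = 0.00138), with the smallest p of the chemokines. The log2 fold change was 1.02 within the M series and 0.51 within the J-A series (adjusted p = 0.312). It was called in all 10 fits without 1 library, but not in the fit of all 20 libraries together (adjusted p = 0.533). Of its 50-base words of transcript, 16.9% are shared with the overlapping opposite-strand gene Zmynd15, which had a mean of 5.66 CPM in sham and 8.80 CPM in FPI microglia. Adam10 and Adam17, proteases that can shed it, had log2 fold changes of 0.11 (SE 0.13) and 0.25 (SE 0.11), and neither was called.

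Cxcl10, the interferon-induced Cxcr3 ligand, stood at 6.86, 0.585, 3.8, 3.74 and 6.05 CPM in sham libraries and at 14.1, 19.2, 11.7, 10.9 and 9.46 CPM in FPI libraries. Sham library 2, the deepest, was the lowest by far, and FPI library 2 was the highest. The means were 4.21 ± 2.45 and 13.1 ± 3.81 CPM, and the log2 fold change was 1.66 (SE 0.45, adjusted p = 0.0676). The fold change was positive within the M series (1.99, adjusted p = 0.118) and within the J-A series (1.11, adjusted p = 0.442). It was not called without sham library 3 (adjusted p = 0.159), sham library 4 (0.15), FPI library 1 (0.109) or FPI library 2 (0.240). FPI libraries 1 and 2 also held the highest summed astrocyte markers among the microglia, 632 and 643 CPM. The same libraries held the highest summed monocyte markers among the microglia, 149 and 186 CPM. This list also summed to 45.7 to 187 CPM in sham and 117 to 303 CPM in FPI astrocytes, so its sum is not particular to monocytes. The mean of Cxcl10 in FPI astrocytes was 4.50 CPM. The part of other cells in the Cxcl10 values was not tested. Art3, which overlaps Cxcl10 on the opposite strand and shares 3.59% of its 50-base words, stood at 0.803 CPM in sham and 0.739 CPM in FPI microglia.

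Cxcl9, the neighbor of Cxcl10 and another Cxcr3 ligand, had 32 reads over the sham microglia and 158 over the FPI microglia. It stood at 0.998, 0.877, 0.671, 0 and 1.13 CPM in sham libraries and at 5.94, 6.85, 3.01, 3.38 and 0.639 CPM in FPI libraries. In 4 FPI libraries it was above every sham library, and FPI library 5 was within the sham range. On the scale of log2(CPM + 0.5) the difference was 1.71 (exact permutation test, two-sided, p = 0.0397, 1 of 10 such tests on genes below the filter, unadjusted; the smallest p possible is 0.00794).

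Ccl3, an attractant of monocytes and T cells, stood at 67.7, 63.2, 67, 33.0 and 36.5 CPM in sham microglia and at 73.1, 163, 144, 53.7 and 66.9 CPM in FPI microglia. Libraries 4 and 5 were the low ones in both conditions, so the groups overlapped when pooled. Within the M series the sham mean was 66.0 and the FPI mean 127 CPM, and within the J-A series they were 34.7 and 60.3 CPM, with no overlap in either series. The pooled log2 fold change of 0.90 (SE 0.27) had an adjusted p of 0.105 and was not called. With a term for the series of names it was 0.89 and was called (adjusted p = 0.00454), and it was also called without FPI library 4 (adjusted p = 0.0466) or FPI library 5 (0.0695). Ccl3, Ccl12, Cxcl10 and Cxcl16 were the 4 chemokines whose FPI libraries all stood above the sham libraries in both series, which held for 3.36% of all genes tested.

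Ccl4, which lies next to Ccl3, stood at 23.8, 39.2, 38.5, 55.0 and 37.4 CPM in sham microglia and at 43.8, 86.1, 132, 51.2 and 39.9 CPM in FPI microglia. FPI libraries 2 and 3 were high and the other three were within the sham range. The log2 fold change was 0.87 (SE 0.27, adjusted p = 0.116), with 1.34 in the M series (adjusted p = 0.0223) and 0.02 in the J-A series. It was called without sham library 4 (adjusted p = 0.0916), FPI library 1 (0.0718) or FPI library 5 (0.0493).

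Ccl5, which T and NK cells also make in quantity, stood at 3.62, 0.219, 1.34, 0.907 and 0 CPM in sham microglia and at 0.466, 12.3, 4.45, 4.31 and 13 CPM in FPI microglia. In 4 FPI libraries it was above every sham library, and FPI library 1 was among the low sham values. The log2 fold change of 2.49 was the largest of the chemokines and also the least precise (SE 0.83, adjusted p = 0.167). It was called without sham library 1 (3.44, adjusted p = 0.0778) or FPI library 1 (2.79, adjusted p = 0.0581). The markers of T and NK cells summed to at most 0.567 CPM in any sham and 0.461 CPM in any FPI microglia library, and Cd3e, Cd3g, Trac, Nkg7 and Gzmb were at 0 in all 10. FPI libraries 2 and 5, with the highest Ccl5 (99 and 102 reads), held no read of any marker in this list. Neither did FPI libraries 1 and 3. These markers were near 0 in all microglia libraries, and the part of T and NK cells in the Ccl5 values was not tested.

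Ccl6 and Ccl9 were abundant and changed less. Ccl6 stood at 85.8, 49.99, 59.7, 59.5 and 68.6 CPM in sham microglia and at 76.4, 124, 61.5, 104 and 124 CPM in FPI microglia, with 3 FPI libraries above the sham range. Its log2 fold change was 0.61 (SE 0.20, adjusted p = 0.141), with 0.40 in the M series and 0.88 in the J-A series, where it was called (adjusted p = 0.0770). It was also called without sham library 1 (0.75, adjusted p = 0.0941) or FPI library 3 (0.75, adjusted p = 0.0179). Ccl9 stood at 59.1, 45.8, 66.8, 83.6 and 89.3 CPM in sham microglia and at 47.6, 75.4, 68.8, 106 and 117 CPM in FPI microglia. Libraries 4 and 5 were the highest in both conditions, the reverse of Ccl3, and the log2 fold change was 0.29 (SE 0.22, adjusted p = 0.737).

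**Figure D3:**
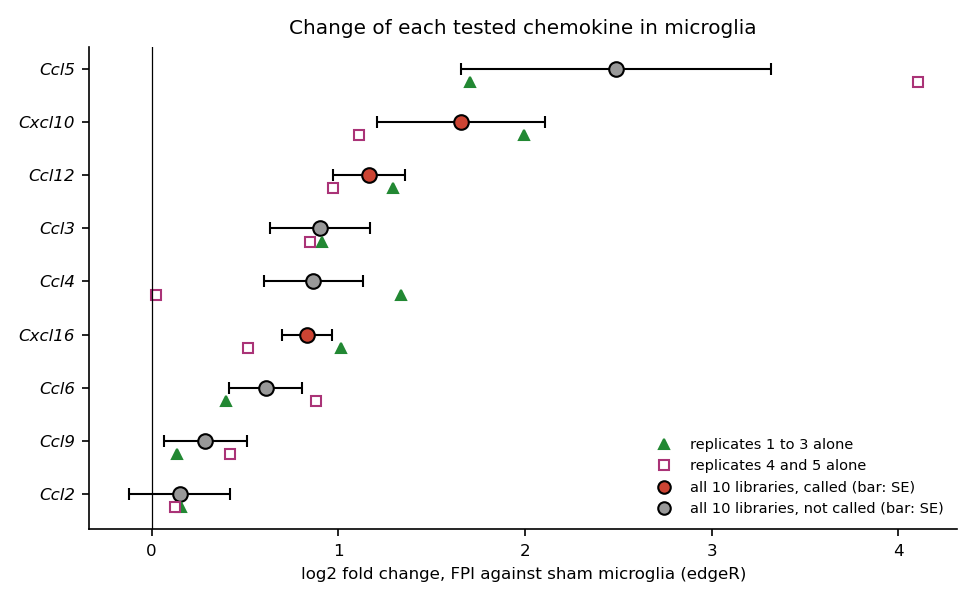
Log2 fold change of the 9 tested chemokines, FPI against sham microglia (edgeR), with the SE as a bar; red points were called and gray ones not. Triangles give the fold change in replicates 1 to 3 alone and open squares that in replicates 4 and 5 alone; all lie at or above 0, and Ccl4 and Ccl5 differ most between the series, 1.34 against 0.02 and 1.70 against 4.10.

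Within groups the chemokines did not vary as one. After the group mean was taken from each of the 10 microglia libraries, the log2 levels of Ccl12 and Ccl6 had the highest Pearson correlation of any pair (0.77), followed by Ccl4 with Cxcl16 (0.61) and Ccl12 with Cxcl10 (0.60). Ccl3 and Ccl4, which are neighbors on the chromosome, had 0.35, and Ccl4 with Ccl6 had the lowest value, -0.58. These libraries share the series of names and differ in depth, and the values are descriptions. Among all tested genes, the one most like Ccl12 was H2-D1, an MHC class I gene (0.98), and the one most like Ccl6 was C1qb, a complement subunit of microglia (0.95). The nearest genes were Sntb2 for Cxcl16 (0.96), Ttyh2 for Cxcl10 (0.96), Znhit1 for Ccl3 (0.96) and Arap1 for Ccl4 (0.96). For Ccl9 it was Tpt1-ps6 (0.97), for Ccl5 Sla (0.96) and for Ccl2 Mrps31 (0.92). Each is the highest of many correlations over 10 libraries. A value of this size can arise without a link between the genes, and none was tested.

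Few other genes of the chemokine system passed the filter in microglia, and none of these was called, against 2.35% of all genes tested. Among so few genes a share of that size can give no call. Of 26 other chemokine ligands, 6 passed the filter and none was called, with 2 positive and 4 negative fold changes and a median of -0.26. Ccl7, a further Ccr2 ligand of the same gene cluster, stood at 7.61 ± 6.21 CPM in sham and 6.05 ± 0.939 CPM in FPI microglia. Of 23 chemokine receptors 7 passed and none was called. Cx3cr1, the most abundant of them, stood at 3883 ± 516 CPM in sham and 2988 ± 610 CPM in FPI microglia (log2 fold change -0.36, SE 0.16, adjusted p = 0.362). Ccr1 stood at 11.0 ± 3.86 CPM in sham and 12.3 ± 5.60 CPM in FPI microglia. Ccr2 stood at 3.90 ± 1.70 and 4.76 ± 3.43 CPM. Cxcr3, the receptor of Cxcl9 and Cxcl10, had 47 reads in sham and 28 in FPI microglia, and Cxcr6, the receptor of Cxcl16, had 3 and 0.

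The list of 18 genes of interferon and NF-kappaB signaling held inducers of chemokines and also inhibitors of NF-kappaB such as Nfkbia and Tnfaip3. All 18 were tested, with a median log2 fold change of 0.26. Of these, 5 were called, all higher, against 2.35% of all genes tested (2.13% called higher). Among them were the interferon factors Irf7 (2.85, SE 0.34) and Stat2 (1.00, SE 0.14), and Relb (0.72) and Nfkb2 (0.65), of the noncanonical NF-kappaB arm. Rela and Nfkb1, of the canonical arm, were at 0.03 and -0.05 and were not called.

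Ccl3, Ccl4 and Ccl2 are also known to be induced in microglia by warm enzymatic digestion, which all groups went through. Of 25 immediate-early and dissociation-linked genes 1 was called, Cd83 (0.83, edgeR adjusted p = 0.00158), against 2.35% of all genes tested. Over this list 9 fold changes were positive and 16 negative, with a median of -0.05. Their summed level was 3865 to 6416 CPM in sham and 2482 to 6236 CPM in FPI microglia. It was lowest in libraries 4 and 5 in both conditions, where Ccl3 was also low. The mean of Ccl2 there was 16.4 CPM against 23.6 CPM in libraries 1 to 3 in sham, and 17.4 against 26.5 CPM in FPI microglia. Ccl4 was lower there in FPI microglia (45.6 against 87.2 CPM) but higher in sham microglia (46.2 against 33.8 CPM). Monocyte markers summed to 21.3 to 47.3 CPM in sham and 33.7 to 186 CPM in FPI microglia. Of 8 such markers 3 were tested and 1, Fn1, was called (log2 fold change 1.84), against 2.35% of all genes tested. Ly6c2, which defines inflammatory monocytes, was at 0 in all 10 microglia libraries. Border macrophage markers summed to 859 to 1345 CPM in sham and 785 to 1147 CPM in FPI microglia, with none of 8 called. The part of these cells and of digestion in the chemokine values was not tested.

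In sham mice the chemokines were compared between the cell types in the fit over all 20 libraries. All 9 tested chemokines were called higher in microglia than in astrocytes, where 60.9% of 15077 genes were called, 25.3% higher in microglia and 35.6% higher in astrocytes. Ccl4, Ccl6, Ccl9 and Ccl12 had 0 reads in the 5 sham astrocyte libraries, against 1754, 2794, 2908 and 1318 in sham microglia. Set against a floor of 3 counts over the group, they were at least 605-fold, 964-fold, 1003-fold and 455-fold higher in microglia. Ccl2 had 1 read in sham astrocytes, a ratio of 973 (95% counting interval 174 to 38467).

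Ccl3 was higher in sham microglia by 6.77 on the log2 scale (SE 0.74, adjusted p = 7.87e-08) and Cxcl16 by 5.85 (SE 0.56, adjusted p = 1.03e-08). The smallest differences were those of Ccl5 (3.66, SE 1.27, adjusted p = 0.0159) and Cxcl10 (2.03, SE 0.63, adjusted p = 0.00806). Cxcl9 was not tested and had 32 reads in sham microglia and 1 in sham astrocytes, a ratio of 33.1 (interval 5.53 to 1348). Other chemokines were higher in astrocytes. Of 9 other ligands tested, 3 were called higher in microglia and 5 higher in astrocytes, among them Cxcl14 at 238 ± 110 CPM in sham astrocytes and 1.17 ± 0.828 CPM in sham microglia, and Cxcl12, the ligand of Cxcr4, at 86.5 ± 60.6 and 6.77 ± 5.41 CPM. Of 9 receptors tested, 6 were called higher in microglia and 3 higher in astrocytes. Endothelial markers summed to 41.1 to 622 CPM in sham astrocytes and 52.5 to 87.4 CPM in sham microglia. Oligodendrocyte precursor markers summed to 289 to 751 CPM in sham astrocytes and 4.42 to 7.89 CPM in sham microglia. The part of such cells in the astrocyte values was not tested.

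In astrocytes Cxcl10 was the one chemokine that passed the filter on low counts. It had 0, 18, 3, 14 and 13 reads in sham astrocyte libraries 1 to 5 and 65, 44, 25, 18 and 32 reads in FPI astrocyte libraries 1 to 5. As levels these were 0, 1.57, 0.313, 1.43 and 1.64 CPM and 6.69, 5.50, 3.11, 2.11 and 5.10 CPM, and every FPI library was above every sham library, which held for 0.451% of 13741 genes tested. The means were 0.991 ± 0.773 and 4.50 ± 1.86 CPM, with a log2 fold change of 2.19 (SE 0.72). Its unadjusted p was 0.00966 and its adjusted p 0.999 (edgeR), so it was not called, in a comparison that called 1 gene, 0.00728% of those tested, with 319 genes at an unadjusted p below 0.05. Leaving out 1 library gave 1.85 to 2.43, and it was not called in any of these fits or the other alternatives. Art3, on the opposite strand, stood at 42.5 CPM in sham and 48.4 CPM in FPI astrocytes.

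**Figure D4:**
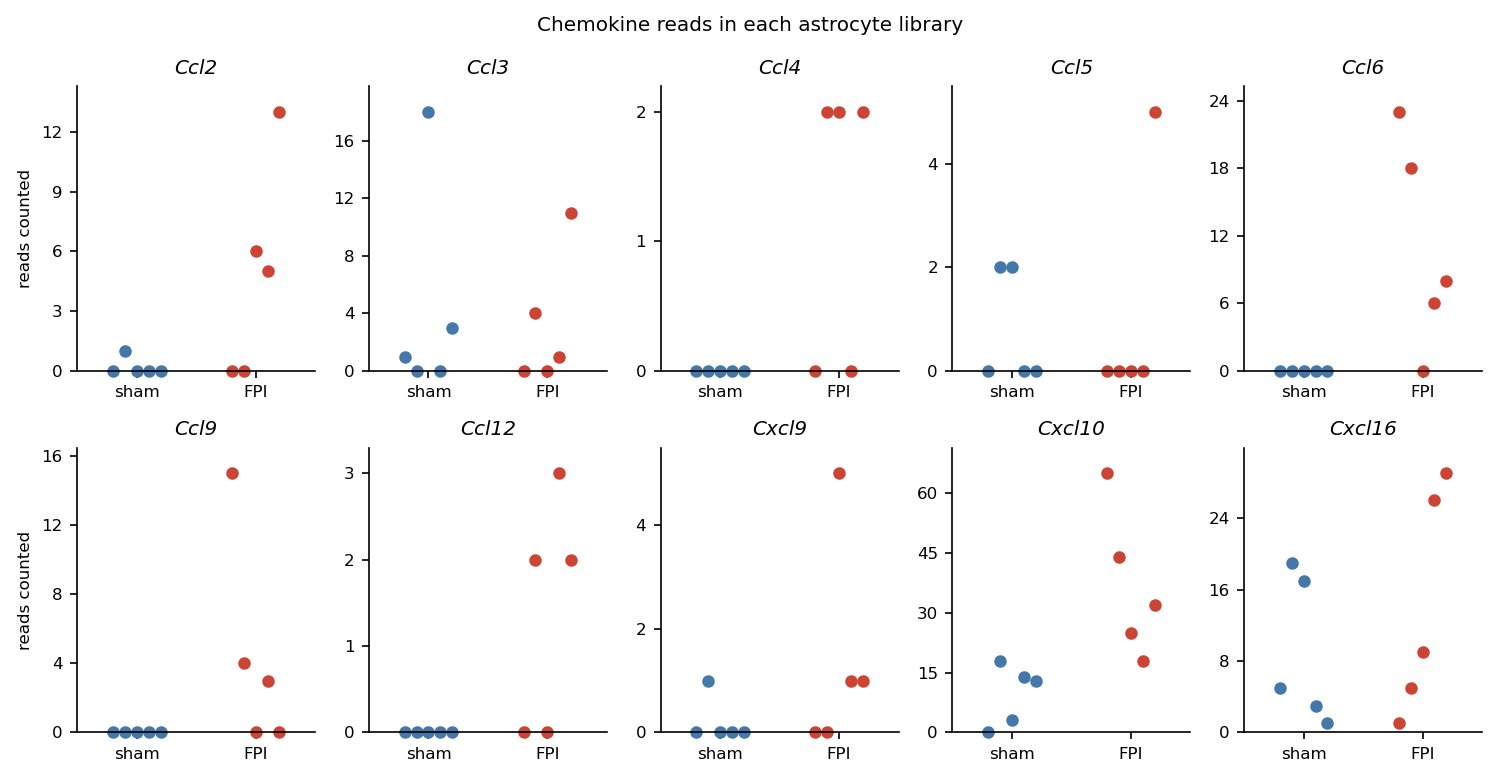
Reads counted for each chemokine in the 5 sham (blue) and 5 FPI (red) astrocyte libraries, replicates 1 to 5 from left to right, on linear axes from 0. Cxcl10 has the most reads, from 18 to 65 in FPI libraries, and Ccl6 has reads in 4 FPI libraries and in no sham library; libraries differ in depth, so reads of 18 in both groups of Cxcl10 correspond to 1.57 and 2.11 CPM.

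Ccl6 had no read in the 5 sham astrocyte libraries and 23, 18, 0, 6 and 8 reads in FPI libraries 1 to 5. FPI library 3 had none, and the other 4 had levels of 0.703 to 2.37 CPM. Of these, libraries 2 and 5 carry the same animal number in their names, and the tests that follow took them as separate animals. On the log2(CPM + 0.5) scale the difference was 1.61 (exact permutation test, two-sided, p = 0.0476, unadjusted), and DESeq2, which tests all genes with counts, called it, in a comparison where it called 0.172% of 22650 genes. Ccl9, its neighbor on the chromosome and fellow Ccr1 ligand, had 0 reads in sham astrocytes and 15, 4, 0, 3 and 0 in FPI libraries 1 to 5 (exact p = 0.167). Beside these, the microglial markers Csf1r and Fcrls, at 2.40 and 0.571 CPM in sham astrocytes, stood at 18.0 and 5.97 CPM in FPI astrocytes.

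The other seven chemokines had few reads in astrocytes. Ccl2 had 1 read over the sham group and 24 over the FPI group, 13 of them in FPI library 5 (exact p = 0.167). Ccl4 went from 0 to 6 reads, Ccl12 from 0 to 7 and Cxcl9 from 1 to 7, each in 3 FPI libraries (exact p = 0.167 for each). Ccl3 (22 and 16 reads, exact p = 1), Ccl5 (4 and 5 reads, exact p = 1) and Cxcl16 (45 and 70 reads, exact p = 0.421) were spread over both groups.

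The astrocyte levels were also set against those of microglia, as a percent of the microglia mean, beside the same measure for the 10 microglial markers. The markers had a median of 0.0608% in sham mice and 0.329% in FPI mice, with a range of 0.0195% to 7.15% and of 0.0773% to 8.95%. Cxcl10, at 23.5% and 34.5%, was above the highest marker, Sall1, in both conditions. In FPI mice Cxcl9 (4.53%), Ccl2 (2.98%), Ccl5 (2.30%), Cxcl16 (1.95%) and Ccl6 (1.35%) were above all markers but Sall1. Ccl9 (0.577%), Ccl3 (0.474%), Ccl12 (0.273%) and Ccl4 (0.232%) were within the range of the other markers. Some of these percents rest on 1 library. Without FPI astrocyte library 5, the one whose name carries the microglia suffix, Ccl5 was at 0%, Ccl2 at 1.46% and Ccl3 at 0.154%, and without library 3 Cxcl9 was at 1.74%. Without library 1 Ccl9 was at 0.256%. Cxcl10 stayed between 30.3% and 39.0% without any 1 of the 5 libraries, Cxcl16 between 1.25% and 2.41% and Ccl6 between 1.08% and 1.68%. The part of microglial RNA in the astrocyte values was not tested.

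**Figure D5:**
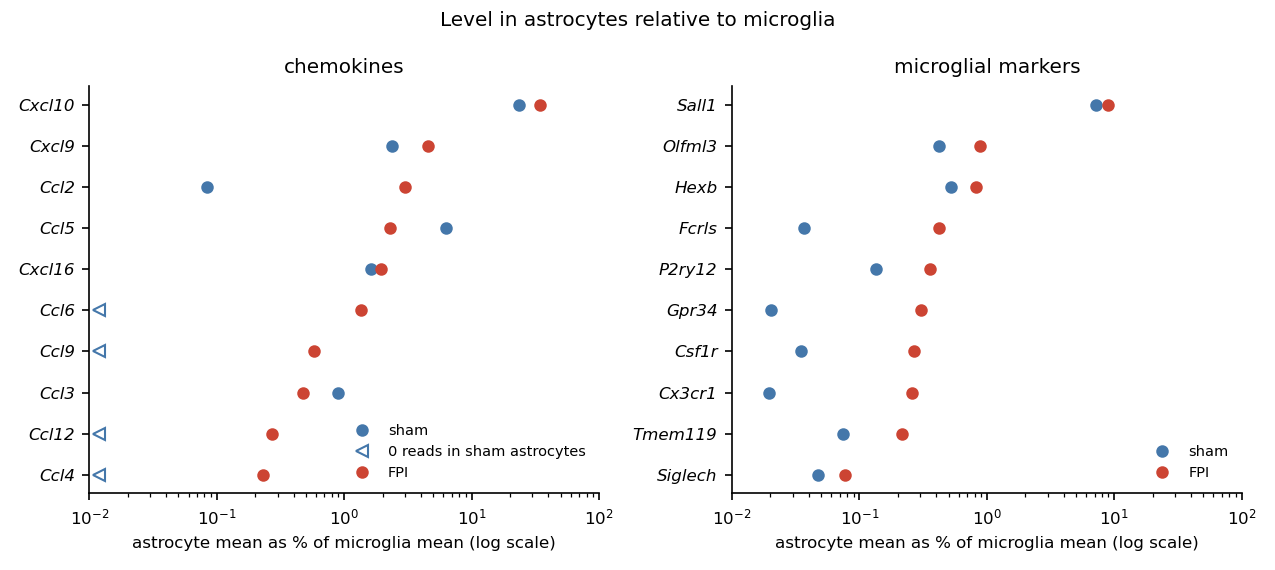
Mean level in astrocytes as a percent of that in microglia, on a log axis, for the 10 chemokines (left) and 10 microglial markers (right), in sham (blue) and FPI (red) mice; open triangles stand for 0 reads in sham astrocytes. Cxcl10 lies farthest right at 23.5% and 34.5%, and 9 of the 10 markers lie below 1%.

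The effect of FPI was then compared between the cell types by an interaction term over all 20 libraries, which called 30 genes, 0.199% of 15077 (0.0332% with the more positive effect in microglia and 0.166% in astrocytes). None of the 9 tested chemokines was called by edgeR, with 4 of them at an unadjusted p below 0.05, and DESeq2 called 3 (Ccl2, Ccl6 and Ccl9), against 0.78% of 24106 genes. Ccl6 came closest, with a difference of -5.93 (SE 1.26, microglia minus astrocytes, adjusted p = 0.1004), a fitted value that rests on 0 reads in sham astrocytes and is no measure of size. It was called without FPI astrocyte library 3 (adjusted p = 0.00441) or library 4 (0.0767). Ccl9 (-4.94, adjusted p = 0.347) and Ccl2 (-4.02, adjusted p = 0.367) had the same sign and rest on 0 and 1 reads there. For Cxcl10 the difference was -0.50 (SE 0.83, adjusted p = 0.999), so its log2 fold changes of 1.66 in microglia and 2.19 in astrocytes were not told apart, with an SE that leaves room for a difference of either sign. For Cxcl16 it was -0.12 (SE 0.68, adjusted p = 1.00). There were 3 animals that gave a library of each cell type, and this fit took all libraries as independent.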

How the data were processed

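Gene counts of 20 libraries were used as deposited, whole numbers of reads per gene that the authors did not normalize. Per the labels' processing notes, bcl2fastq, HISAT2 2.1.0 and featureCounts were used with mm10 (GRCm38.p6), and libraries were made with a stranded total RNA kit for picogram inputs. Whether counting used strand is not given in the sources used here, so reads of overlapping opposite-strand genes may not be told apart. Groups were taken from titles and cell type labels. Each library was taken as 1 animal, and 3 animals gave both cell types.

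Each cell type was fitted alone, and all 20 libraries together for contrasts of cell types, with edgeR 4.0.16 (R 4.3.3): filterByExpr, TMM and the quasi-likelihood test, with Benjamini-Hochberg adjustment over all genes tested and the study's thresholds (adjusted p below 0.1, absolute log2 fold change above 0.6). SEs were the fold change divided by the root of F. Genes below the filter were compared by exact permutation of log2(CPM + 0.5). Lengths were exon unions of GENCODE M21, which matched 37693 identifiers and 99.83% of counts. TMM factors between cell types assume that most genes do not differ; the median log2 fold change between cell types was -0.15. Intervals cover counting error only. The test was checked on simulated data. DESeq2 1.42.0 served as an alternative, and scipy 1.17.1 (Python 3.11.15), pandas 2.3.3, matplotlib 3.10.9 and numpy 2.4.6 were used for tables and figures.

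The chemokines and the gene lists were chosen with earlier results of these data known. Genes named beside the chemokines were the called members of the lists, at most 6 per list and comparison, list members that bear on a chemokine (its receptors, neighbors, proteases and inducers), chosen after their values were seen, and markers. Alternatives were DESeq2, RLE factors, other filters, robust fits, a replicate block, other thresholds, a series term, summing or leaving out libraries, and longest transcripts for length. Fits within each series of names, and percents of the microglia level without 1 astrocyte library, were added after the data were seen. Protein sequences were not used here, and the values of 2 genes of the lists are not reported here.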

Additional observations from a re-analysis of the deposited data

Results flagged for a closer look

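In 36 groups of 5 libraries with reads of a chemokine, the highest or lowest library was compared with the rest by Dixon's ratio. A library stood apart in 6 groups. The chance rate of this ratio assumes normal values and does not hold for counts near 0, so no expected number is given. Where only 1 library has reads, the ratio is 1 whatever their number. All 6 were in astrocytes and rest on few reads. Ccl2 and Cxcl9 each stood at 0.0870 CPM in sham astrocyte library 2, which is 1 read, with the other four libraries at 0. Ccl3 stood at 1.88 CPM in sham astrocyte library 3 (18 reads), with the next library at 0.378 CPM. It stood at 1.75 CPM in FPI astrocyte library 5 (11 reads), with the next at 0.50 CPM. Ccl5 stood at 0.798 CPM in FPI astrocyte library 5 (5 reads), with the other four at 0. Cxcl9 stood at 0.622 CPM in FPI astrocyte library 3 (5 reads), with the next at 0.160 CPM. FPI astrocyte library 5 is the one whose name carries the microglia suffix.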

How the results depend on the processing

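In microglia, 3 chemokines were called in the fit reported, 7 with DESeq2, 7 when every gene with at least 1 count was kept, 5 with at least 10 counts in every library, 4 in the M series alone (Ccl3, Ccl4, Ccl12 and Cxcl16), 1 in the J-A series alone, 1 with all 20 libraries in 1 fit, and 2 to 6 without 1 library (5 without sham library 1 and 6 without FPI library 5). Ccl12 was called in 21 of 22 alternatives and Cxcl16 in 20 of 22, while Cxcl10 was called in 12 of 21. Over all genes the calls were 285 in the fit reported, 364 in the M series alone, 99 in the J-A series alone, 121 with all 20 libraries and 177 to 423 without 1 library. In astrocytes 0 chemokines were called, and 1 (Ccl6) with DESeq2 and 1 (Ccl6) with all 20 libraries; no chemokine passed a filter of 10 counts in every library there, so that setting gave no value for astrocytes, the cell types or the interaction. Over all genes, 1 was called in astrocytes, 39 with DESeq2, 9 with every gene, 11 with the replicate block, 53 with all 20 libraries, and 0 with 10 counts in every library, robust fits, an adjusted p below 0.05 or FPI libraries 2 and 5 summed; leaving out 1 library gave 0 to 3. In sham mice 9 chemokines were called higher in microglia in the fit reported, and 9 or 10 in every fit without 1 library; over all genes the calls were 9175 and, with 10 counts in every library, 4551. For the interaction, 0 chemokines were called, 3 with DESeq2, 1 with every gene, 1 without the astrocyte libraries of animals with both cell types and 0 to 1 without 1 library. Over all genes its 30 calls became 188, 1 with 10 counts in every library, 69 without those astrocyte libraries, 8 without the microglia libraries of those animals, and 21 to 48. Values that changed sign were Ccl2 in microglia (-0.032 without FPI library 2; -0.03 to 0.47 without 1 library), and, for the interaction, Ccl3 (-0.89 to 2.49 without 1 library) and Cxcl16 (0.31 without the astrocyte libraries of animals with both; -0.49 to 0.46 without 1 library). Per longest transcript, Ccl6 was at 45.0 and Cxcl16 at 20.5 CPM per kb in sham microglia. The cause of these changes was not tested.

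The replicate numbers were not taken to pair the samples, since not every same-numbered pair had a correlation above 0.1. The values were -0.07 to 0.09 in microglia and, in astrocytes, -0.01 to 0.45, with 4 of 5 pairs above 0.1. A library correlated best with its own number in 2 of 5 cases in microglia and 3 of 5 in astrocytes, a hint from the data and not from the design. With the replicate block 3 chemokines were called in microglia, Ccl3 (0.85, adjusted p = 0.0144), Ccl12 and Cxcl16, and Cxcl10 was not (1.80, adjusted p = 0.106); 0 were called in astrocytes, 9 between the cell types in sham mice and 0 for the interaction. In astrocytes 9 of 10 chemokines were below the filter.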
